A study of Drosophila melanogaster with 8 samples.

Results

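Autophagy is the process by which a cell encloses part of its own cytoplasm in a double membrane and delivers it to the lysosome. The genes described here are 31 Drosophila melanogaster genes of that process: the machinery that starts, builds, lipid-couples and fuses the autophagosome, the cargo receptor gene ref(2)P, the transcription factor gene Mitf and TP53INP. All but TP53INP were listed for their textbook role in autophagy, with earlier results of these data already known. TP53INP was chosen by its large diet difference in these same libraries, so that difference is given as a description with no test. Of the 31 genes, 30 had a row among the 11769 genes of the count table and all 30 were among the 7844 genes with enough counts to be tested. Atg8b had no row and was not analysed here. Vps34 is listed in the table under its symbol Pi3K59F.

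The libraries came from larvae in the third instar carrying hmlΔ>2xeGFP, a reporter in which the Hemolectin (Hml) promoter marks hemocytes, and the genotype is labelled Wild-type. The control diet (CD) was a standard medium of sucrose and yeast, and the high-sugar diet (HSD) was that medium with a 10x sucrose supplement. Hemocytes of 5 larvae were bled at 96 h after egg laying, 20000 GFP-positive cells were sorted per replicate, and poly(A) RNA was sequenced in 4 libraries per diet, numbered 1, 3, 4 and 5 for CD and 1, 2, 3 and 4 for HSD. The labels do not say whether replicates came from separate cultures, and the spread behind the p-values may therefore be technical in part.

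In an autophagosome's assembly the Atg1 kinase complex gives the starting signal, and the Vps34 lipid kinase complex then marks the growing membrane with the lipid PI3P. Ubiquitin-like conjugation reactions couple Atg8 to that membrane, and SNARE proteins and the HOPS tether join the closed vesicle to a lysosome. In Drosophila the process is best known from the larval fat body, where starvation and the steroid ecdysone induce it. Transcript abundance was measured here, and autophagic turnover was not.

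Total counts per library ran from 20817891 to 24733521, which set the counting precision of each value. Hml stood at 14084 CPM or more in every library. CPM are read counts relative to the library total on the TMM scale, a between-library scaling that assumes most genes differ little. The cells were sorted on an Hml reporter, so this level is no independent check of the cell type. On CD the plasmatocyte markers ran from 19.5 CPM for crq to 19446 CPM for Ppn. The pool also held crystal cell markers, whose 7 genes summed to 23016 to 27174 CPM on CD and 29773 to 45307 CPM on HSD. The 12 plasmatocyte markers summed to 77072 to 87866 CPM on CD and 110006 to 124068 CPM on HSD, and the 4 lymph gland progenitor markers to 475 to 586 and 903 to 988 CPM. Nearly all of that last sum was Tep4, while dome was not called (log2 fold change 0.14, edgeR adjusted p = 0.253) and Antp and kn had 3 and 6 counts over all libraries; these genes were named after their values were seen. CD replicate 1 stood apart from the other CD libraries on the second principal component, at 25.1 against −12.1 to −5.76, and HSD replicate 4 had the lowest crystal cell sum of its diet. In a bulk pool, a change in the number of cells of one type and a change in RNA per cell cannot be told apart.

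TP53INP, which encodes a protein that binds Atg8-family proteins and, in flies, also acts as a cofactor of the ecdysone receptor, was the one gene of the list with a large diet difference. Its counts were 17, 21, 17 and 18 in CD replicates 1, 3, 4 and 5 and 213, 193, 156 and 160 in HSD replicates 1 to 4. On the TMM scale these were 0.805, 0.784, 0.742 and 0.762 CPM on CD and 9.83, 9.15, 6.98 and 7.92 CPM on HSD. Every HSD library lay far above every CD library, and within HSD replicates 1 and 2 were higher than replicates 3 and 4. The means were 0.773 ± 0.0269 CPM on CD and 8.47 ± 1.27 CPM on HSD (SD, n = 4 each), a log2 fold change of 3.44 with a standard error of 0.162, or 10.9-fold. Of the 7844 tested genes, 11 had a larger log2 fold change towards HSD. TP53INP was listed for this difference, so the rank is no test of it.

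The CD level of TP53INP rests on 73 counts in all, against 722 on HSD. The ratio of these sums, after division by the scaled library sizes, was 11.0 with an exact 95% counting interval of 8.60 to 14.1, which covers counting error only. That interval makes no allowance for the choice of TP53INP by this same difference. The spread of 3.48% between CD libraries was smaller than the 23.4% that counting alone gives at a mean of 18.2 counts, so the CD standard deviation is narrower than the counting error of a single library. On HSD the spread was 15.0%, against 7.44% from counting. Over 17 alternative fits the log2 fold change ran from 3.28 to 3.53.

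TP53INP lies on chromosome 3L from 4406943 to 4420648 (dm6, plus strand), and none of its exonic length overlaps another annotated gene. Its nearest listed upstream neighbours are CG15019, 883 bases away on the opposite strand, and Syx17, itself an autophagy gene, 1774 bases away on the same strand. CG15019 was called higher on HSD (log2 fold change 0.31, edgeR adjusted p = 0.000847) and Syx17 was not called (0.22, adjusted p = 0.0729). The neighbouring gene slow had 9 counts on CD and 13 on HSD in all. Downstream, CG32241 begins 44456 bases away and had 9 counts on CD and 11 on HSD. Farther downstream, CG32249, at 49352 bases, had 46 counts on CD and 15 on HSD in all. CG7465, at 59634 bases, had 1 and 1, and CG11350, at 62160 bases, had 2 and 75. All of these downstream genes had too few counts to be tested.

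Many markers of all 3 hemocyte classes were also called higher on HSD (edgeR adjusted p under 0.05 over all genes tested), against 14.4% of all tested genes called higher and 11.6% lower. Called higher were 8 of the 12 plasmatocyte markers, 6 of the 7 crystal cell markers and 6 of the 9 lamellocyte markers, and 1 lamellocyte marker was called lower. The plasmatocyte and crystal cell sums, given above, were higher in every HSD library. Much of the plasmatocyte sum was Ppn, Col4a1 and Hml, at 34334, 21258 and 20784 CPM on HSD. The 4 plasmatocyte markers not called were eater, srp, He and crq, with log2 fold changes of −0.06, −0.00, 0.13 and 0.20. The 9 lamellocyte markers summed to 1534 to 1960.3 CPM on CD and 1807 to 2054 CPM on HSD, which overlap. Most of that sum was cher, mys and msn, at 1007, 300 and 276 CPM on CD. Their log2 fold changes were 0.10, 0.01 and −0.27. The 6 called higher had log2 fold changes from 0.76 for PPO3 to 6.93 for ItgaPS4. Among them atilla, the surface marker of lamellocytes, had 19 counts in all CD libraries and 515 in all HSD libraries. ItgaPS4 had 2 and 279. Both genes passed the count filter only through the HSD libraries, where they are high, so their calls are a description and no test. The log2 fold change of ItgaPS4 rests on those 2 CD counts, with a standard error of 0.731. The 7 fat body markers, with Lsp2 among them, summed to 15.5 to 76.1 CPM on CD and 15.5 to 24.0 CPM on HSD, and the 7 muscle markers to 9.75 to 12.4 and 11.4 to 15.1 CPM. No marker in these lists was at 0 in every library. Every gene in the count table had at least 2 counts in all, so this was fixed in advance. The part of the cell types behind these markers in the TP53INP difference was not tested.

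**Figure D1:**
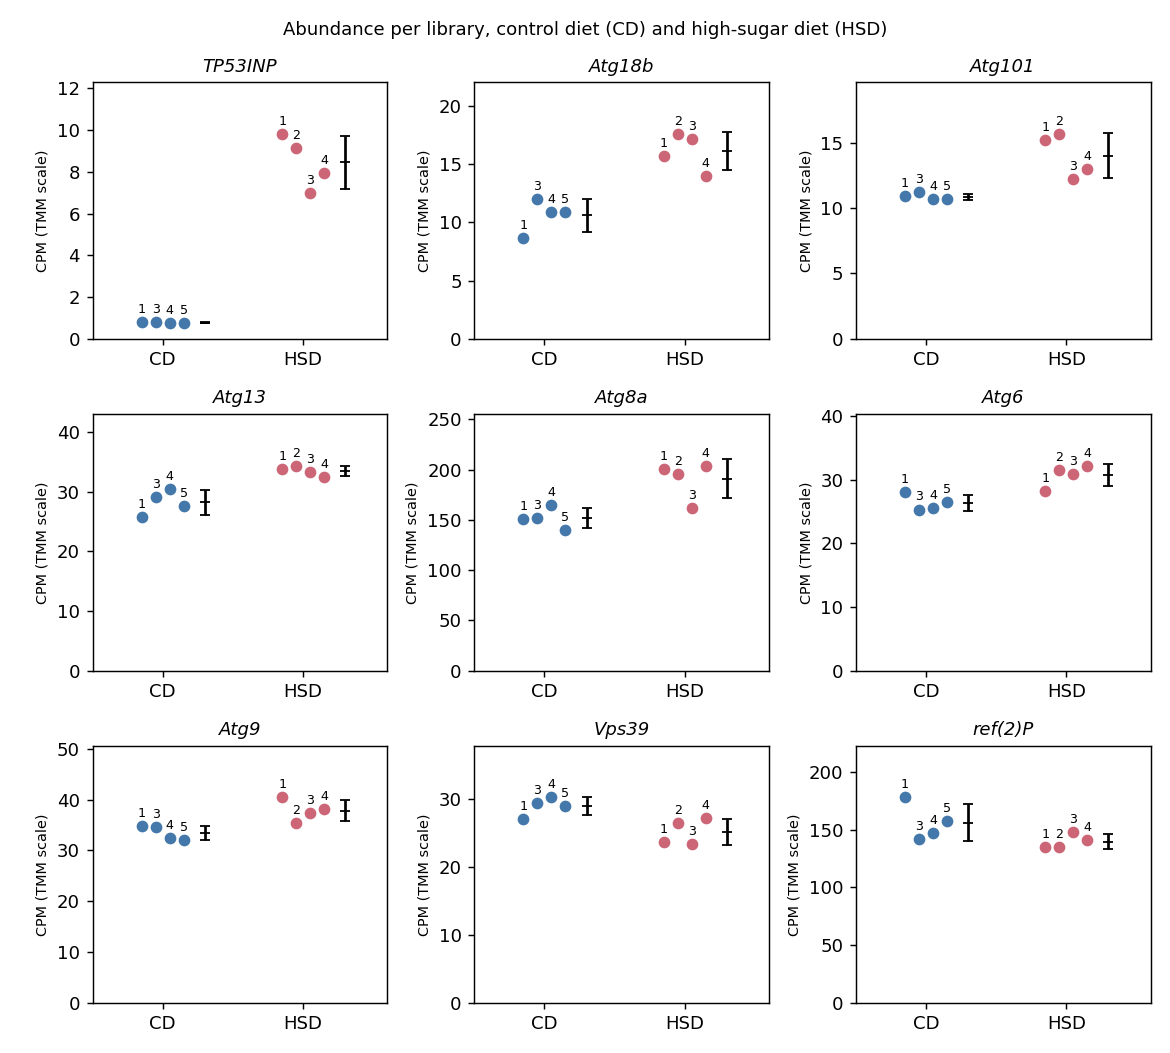
Abundance in CPM (linear axis from 0) of TP53INP, the 7 other autophagy genes that passed the test, and ref(2)P, with 1 point per library numbered by replicate and the mean ± SD of 4 libraries beside it. TP53INP separates the diets by far the most, from 0.742 to 0.805 CPM on CD to 6.98 to 9.83 CPM on HSD, while Atg8a and Vps39 overlap between the diets.

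The other autophagy genes differed little between the diets. Of the 29 tested members other than TP53INP, 6 were higher and 1 was lower on HSD at an edgeR adjusted p under 0.05 over all genes tested, and 22 did not pass. That is 24.1% of the members called, beside 26.0% of all 7844 tested genes, so the share of calls lay near the background. By direction, 14.4% of all tested genes were called higher and 11.6% lower. The log2 fold changes ran from −0.21 to 0.60 with a median of 0.06, against −0.01 over all tested genes. Of the 29 members, 28 (96.6%) lay within 1.5-fold, as did 88.9% of all tested genes. The median absolute log2 fold change was 0.115 over the members and 0.141 over all tested genes. When libraries were scaled by their size alone the median of all tested genes moved to −0.17 and that of the members to −0.11, and 1 member was called higher and 11 lower, so the directions below are relative to the TMM scale. In 8 of the 29 members CD and HSD libraries held separate ranges without overlap, 27.6%, beside 28.0% of all tested genes. In dm6 coordinates the called genes lie on several chromosomes: Atg101 on X from 18791668 to 18793517, Atg13 on 3R from 8349815 to 8352817, Atg18b on 2L from 21212322 to 21220572, Atg6 on 3R from 24049180 to 24050782, Atg9 on 2R from 16294400 to 16297232, Atg8a on X from 10764878 to 10768338 and Vps39 on 3R from 18271189 to 18274446.

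**Figure D2:**
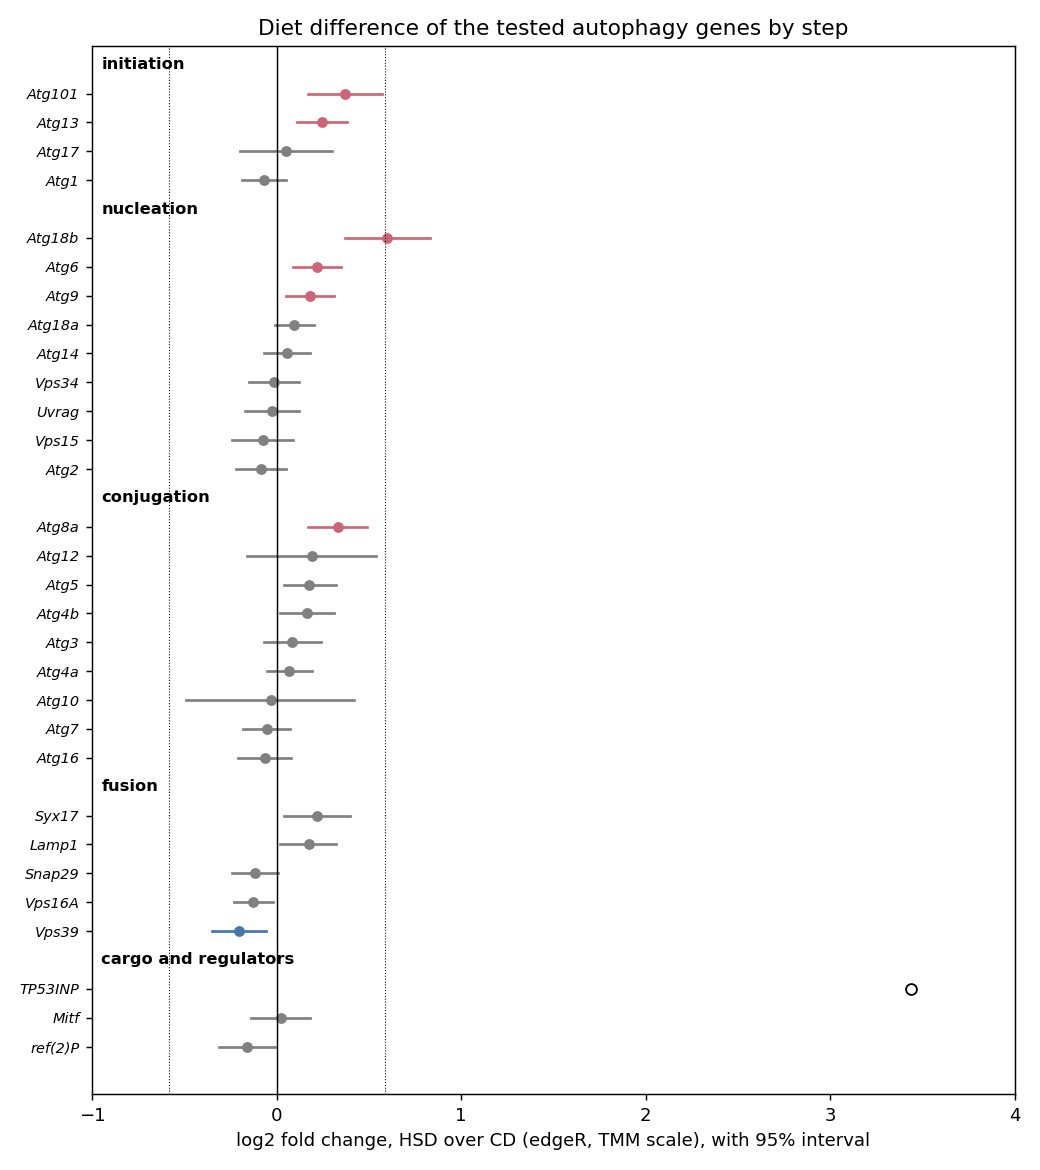
The log2 fold change (HSD over CD, edgeR, TMM scale) of the 30 tested genes by step, with 95% intervals. Red marks genes called higher, blue lower and grey not called; TP53INP, chosen by this difference, is the open point at 3.44 without an interval. The dotted lines mark 1.5-fold. Apart from TP53INP only Atg18b, at 0.60, reaches that line.

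Among the 4 genes of the initiation complex, Atg101 and Atg13 were called higher on HSD, and the kinase gene Atg1 and the scaffold gene Atg17 were not called. Atg101, which binds Atg13 in the complex, stood at 10.9, 11.2, 10.7 and 10.7 CPM in the CD libraries and at 15.2, 15.7, 12.2 and 13.0 CPM in the HSD libraries. Every HSD library was above every CD library, and HSD replicate 3 lay nearest to CD. On the log2 scale HSD was higher by 0.37 ± 0.0906 (standard error, edgeR adjusted p = 0.00975). Atg13, the regulatory partner of the kinase, was at 25.7, 29.2, 30.4 and 27.6 CPM on CD and 33.8, 34.4, 33.3 and 32.4 CPM on HSD, again without overlap (0.25 ± 0.0617 on the log2 scale, edgeR adjusted p = 0.0108). The kinase gene Atg1 was at 60.7 ± 3.60 CPM on CD and 57.8 ± 1.28 CPM on HSD (SD, n = 4 each), with a 95% interval of the log2 difference from −0.19 to 0.05. Atg17, the scaffold related to mammalian FIP200, overlapped widely, at 33.7 to 45.6 CPM on CD and 35.8 to 51.0 CPM on HSD (interval −0.20 to 0.30). Scaled by library size alone, neither Atg13 nor Atg101 passed (log2 fold change 0.08 and 0.20, edgeR adjusted p = 0.361 and 0.0772; over all alternatives 0.00442 to 0.361 and 0.00465 to 0.168).

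Among the 9 genes that supply and mark the membrane, 3 were called higher, or 33.3% beside 14.4% of all tested genes. None was called lower, beside 11.6%. The calls of Atg6 and Atg9 depended on single libraries, as given below. Atg18b, one of the PI3P-binding WIPI-family propeller genes, had the largest difference after TP53INP. It stood at 8.62, 12.0, 10.9 and 10.9 CPM on CD and at 15.7, 17.6, 17.1 and 14.0 CPM on HSD. No library overlapped, and CD replicate 1 and HSD replicate 4 were the lowest of their diets. The difference was 0.60 ± 0.107 on the log2 scale (standard error), or 1.51-fold (edgeR adjusted p = 0.00124), and the call was kept in all 17 alternatives (adjusted p from 1.56e-05 to 0.0233). Its paralog Atg18a did not pass, at 68.6 ± 2.36 CPM on CD and 73.3 ± 2.32 CPM on HSD (log2 fold change 0.10, edgeR adjusted p = 0.177).

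Atg6, the fly Beclin 1 and a subunit of the Vps34 complex, was at 28.0, 25.3, 25.5 and 26.5 CPM on CD and at 28.2, 31.5, 30.9 and 32.2 CPM on HSD. HSD replicate 1 lay just above CD replicate 1, and the groups did not overlap (0.22 ± 0.0613 on the log2 scale, edgeR adjusted p = 0.0183). Atg9, the transmembrane protein of the vesicles that seed the autophagosome, was at 33.4 ± 1.41 CPM on CD and 37.8 ± 2.07 CPM on HSD (log2 fold change 0.18, edgeR adjusted p = 0.0398). Both calls depended on single libraries. Atg6 lost its call without CD replicate 3 or 4 or HSD replicate 2 (edgeR adjusted p = 0.0659, 0.0540 and 0.0526). Atg9 lost it without CD replicate 3, 4 or 5 (0.0631, 0.0994 and 0.111) and without HSD replicate 1, 3 or 4 (0.124, 0.0684 and 0.0699), and also with DESeq2 (0.0520) and without a low-count filter (0.0674). Scaled by library size alone, neither passed (adjusted p = 0.426 for Atg6 and 0.841 for Atg9; over all alternatives from 0.00432 for Atg6 and from 0.0200 for Atg9).

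The lipid kinase itself and its other partners did not pass. Vps34, the catalytic subunit, was at 34.7 ± 1.08 CPM on CD and 34.4 ± 2.57 CPM on HSD, with an interval of the log2 difference from −0.15 to 0.12. Vps15, its regulatory subunit, had an interval from −0.24 to 0.09. Atg14, the subunit that directs the complex to the autophagosome, and Uvrag, its alternative in the endosomal form, had intervals from −0.07 to 0.18 and from −0.17 to 0.12. The lipid transfer gene Atg2 had one from −0.22 to 0.05. These intervals reach as far as −0.24 and 0.18 on the log2 scale, so equality was not shown. Opposite-strand exons of a noncoding antisense gene cover 23.8% of the exonic length of Uvrag, and its count is uncertain to that extent since the strand setting of the counting is not given in the sources used here.

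Of the 9 tested conjugation genes only Atg8a passed, or 11.1% beside 26.0% of all tested genes. Atg8a encodes the ubiquitin-like protein that is coupled to the lipid phosphatidylethanolamine on the autophagosome membrane. It stood at 151, 152, 165 and 139.7 CPM on CD and at 201, 196, 162 and 204 CPM on HSD. HSD replicate 3 lay inside the CD range and the other HSD libraries above it. The difference was 0.33 ± 0.0746 on the log2 scale (standard error, edgeR adjusted p = 0.00584). Atg8a did not pass once CD replicate 1 and HSD replicate 4 were both left out (log2 fold change 0.30, edgeR adjusted p = 0.0806) or when scaled by library size alone (0.17, adjusted p = 0.0852; over all alternatives 0.000580 to 0.111).

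The enzymes that process and couple Atg8a showed no call. Atg7, the activating enzyme of both conjugation reactions, was at 29.5 ± 1.28 CPM on CD and 28.5 ± 1.41 CPM on HSD, with an interval of the log2 difference from −0.18 to 0.07. Atg3, which hands Atg8a to the lipid, had an interval from −0.07 to 0.24. Its highest value of all, 55.8 CPM, was in CD replicate 1, against 44.1 to 47.6 CPM in the other CD libraries and 49.6 to 52.9 CPM on HSD. Without CD replicate 1 Atg3 was called higher (log2 fold change 0.16, edgeR adjusted p = 0.0281; over all alternatives 0.0130 to 0.751). The proteases Atg4a and Atg4b, which trim Atg8a and later release it, had log2 fold changes of 0.07 and 0.16 and did not pass (edgeR adjusted p = 0.407 and 0.0830). Exons of CG4629 on the opposite strand overlap 51.4% of the exonic length of Atg4a.

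Atg5, Atg12 and Atg16 form the complex that places Atg8a on the membrane. Atg5 was at 26.4, 25.6, 23.0 and 24.3 CPM on CD and at 30.4, 27.7, 26.9 and 27.1 CPM on HSD. These groups did not overlap, yet the gene missed the threshold (0.18 on the log2 scale, edgeR adjusted p = 0.0638), and without CD replicate 1 it passed (0.21, adjusted p = 0.0245; over all alternatives 0.0143 to 0.881). Atg16 had an interval of the log2 difference from −0.21 to 0.08. Atg12 and Atg10, the enzyme that couples Atg12 to Atg5, were scarce, with 551 and 446 counts over the 8 libraries. Their intervals, from −0.16 to 0.54 and from −0.49 to 0.42, were the widest of the 29 members other than TP53INP. Differences inside these intervals were not excluded at this depth. Opposite-strand exons of Dgk cover 46.6% of the exonic length of Atg10, and those of ND-SGDH cover 13.6% of that of Atg12.

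Among the 5 genes of fusion with the lysosome 1 was called lower on HSD and none higher. Vps39, a subunit of the HOPS tether, was at 27.1, 29.4, 30.2 and 29.0 CPM on CD and at 23.6, 26.4, 23.3 and 27.2 CPM on HSD. HSD replicate 4 lay just above CD replicate 1, so the diets overlapped in that pair (−0.21 ± 0.0670 on the log2 scale, edgeR adjusted p = 0.0386). This call was lost without CD replicate 3, 4 or 5 (edgeR adjusted p = 0.0958, 0.0986 and 0.0804) and without HSD replicate 1 or 3 (0.114 and 0.109; over all alternatives 0.00143 to 0.161). Vps16A, the HOPS core subunit, was at 62.0, 60.4, 60.0 and 60.1 CPM on CD and at 54.3, 55.1, 54.0 and 58.4 CPM on HSD, all below CD, without passing (log2 fold change −0.13, edgeR adjusted p = 0.0733). Without HSD replicate 4 it was called lower (−0.15, adjusted p = 0.0446; over all alternatives 0.000759 to 0.412).

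Syx17, the autophagosomal SNARE, and Snap29, its SNARE partner, had log2 fold changes of opposite sign, and neither passed. Syx17 was at 9.20 ± 0.713 CPM on CD and 10.7 ± 0.321 CPM on HSD, with every HSD library above every CD library (log2 fold change 0.22, edgeR adjusted p = 0.0729). Snap29 was at 55.1 ± 2.95 CPM on CD and 50.9 ± 2.82 CPM on HSD, with overlap (−0.12, adjusted p = 0.181). Lamp1, the lysosomal membrane protein, was at 420.4, 404, 419 and 362 CPM on CD and 467, 454, 402 and 486 CPM on HSD, where HSD replicate 3 fell inside the CD range. It did not pass with all libraries (log2 fold change 0.17, edgeR adjusted p = 0.0861), and it was called higher without CD replicate 1 (adjusted p = 0.0384) or HSD replicate 3 (0.0302; over all alternatives 0.0302 to 0.914).

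The transcripts of the cargo receptor and of the transcription factor did not pass. ref(2)P, the fly p62, which binds ubiquitinated cargo and is itself degraded with it, was at 178, 142, 147 and 158 CPM on CD and 135, 135, 148 and 141 CPM on HSD. CD replicate 1 was the highest, and the diets overlapped (log2 fold change −0.16, 95% interval −0.31 to −0.01, edgeR adjusted p = 0.108). Mitf, the fly member of the MITF and TFEB family that controls lysosomal and autophagy genes, was at 57.6, 68.7, 71.5 and 63.5 CPM on CD and 71.8, 67.3, 61.2 and 65.2 CPM on HSD. Its interval of the log2 difference ran from −0.14 to 0.18 around 0.02.

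Levels of different genes were compared as RPKM, the CPM divided by the kilobases of exon. Scaled by library size alone, 29 of the 60 levels (30 genes on each diet) moved by over 1 SD of their libraries. With the length of the longest transcript instead of all exons, 11 of the 60 did. On CD the list spanned from 0.253 ± 0.00880 for TP53INP to 253 ± 17.2 RPKM for Lamp1 (SD, n = 4). Lamp1, Atg8a at 89.5 ± 6.07 and ref(2)P at 65.2 ± 6.62 were the highest, in that order, and their ranges over the CD libraries did not overlap. Lamp1 held 33.6% and Atg8a 11.9% of the summed level of the 30 genes. Snap29 at 45.5 and Atg3 at 39.5 followed with overlapping ranges, then Atg18a at 23.5 and Vps16A at 22.1, which also overlapped. In the middle of the order the genes could not be ranked: 10 of the 29 neighbouring pairs had ranges that did not overlap.

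The kinase gene Atg1 stood at 14.6 ± 0.868 RPKM on CD, above its partners Atg13 at 9.40 ± 0.688, Atg17 at 6.59 ± 0.851 and Atg101 at 5.88 ± 0.126. In the complex that places Atg8a, Atg5 at 17.5 was above Atg16 at 9.84 and Atg12 at 6.14. In the Vps34 complex Atg6 at 17.6 and Atg14 at 16.6 were above Vps34 at 11.0 and Vps15 at 5.73. Among all tested genes, ranked by this level, Lamp1 was at percentile 96.0 on CD, Atg8a at 89.7, Mitf at 52.0 and Atg101 at 28.6. TP53INP was at percentile 3.12 on CD, the lowest of the list, and at 18.8 on HSD, where at 2.77 ± 0.415 it was above Atg10 at 1.61 ± 0.417 and below all the others.

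**Figure D3:**
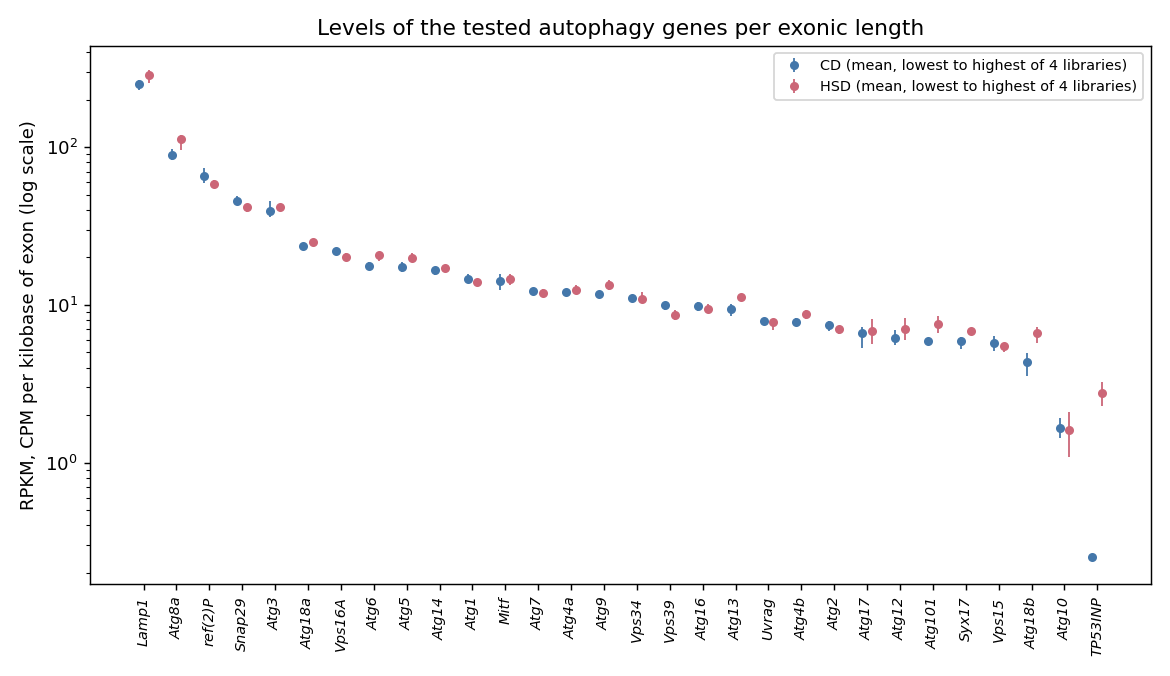
RPKM, the CPM per kilobase of exon (log axis), of the 30 tested genes, ordered by their CD level, with the mean as a point and the lowest to highest of 4 libraries as a line for each diet. Lamp1 is highest at 253 on CD and 286 on HSD, and TP53INP moves from 0.253 to 2.77 while the next largest relative difference is that of Atg18b, from 4.36 to 6.62.

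Ratios of raw counts between members of 1 library do not depend on how libraries are scaled, and the pairs here were picked after the values had been seen. TP53INP had 8.81, 8.08, 9.04 and 7.83 counts per 100 counts of its neighbour Syx17 in the CD libraries and 90.3, 82.8, 67.5 and 75.1 in the HSD libraries. Atg13 had 44.7 to 51.0 counts per 100 counts of Atg1 on CD and 56.3 to 59.6 on HSD, and Atg101 had 17.1 to 19.2 and 20.6 to 27.3. Both pairs separated the diets. Atg18b had 12.5 to 16.8 counts per 100 counts of Atg18a on CD and 18.5 to 25.1 on HSD, and Atg6 had 74.6 to 78.3 per 100 counts of Vps34 on CD and 81.3 to 98.8 on HSD. Atg8a per 100 counts of Lamp1 was 35.8 to 39.4 on CD and 40.3 to 43.3 on HSD, without overlap, whereas Atg8a per 100 counts of ref(2)P overlapped, at 84.7 to 112 on CD and 109.6 to 149 on HSD. Vps39 per 100 counts of Vps16A also overlapped, at 43.8 to 50.4 on CD and 43.1 to 48.0 on HSD.

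**Figure D4:**
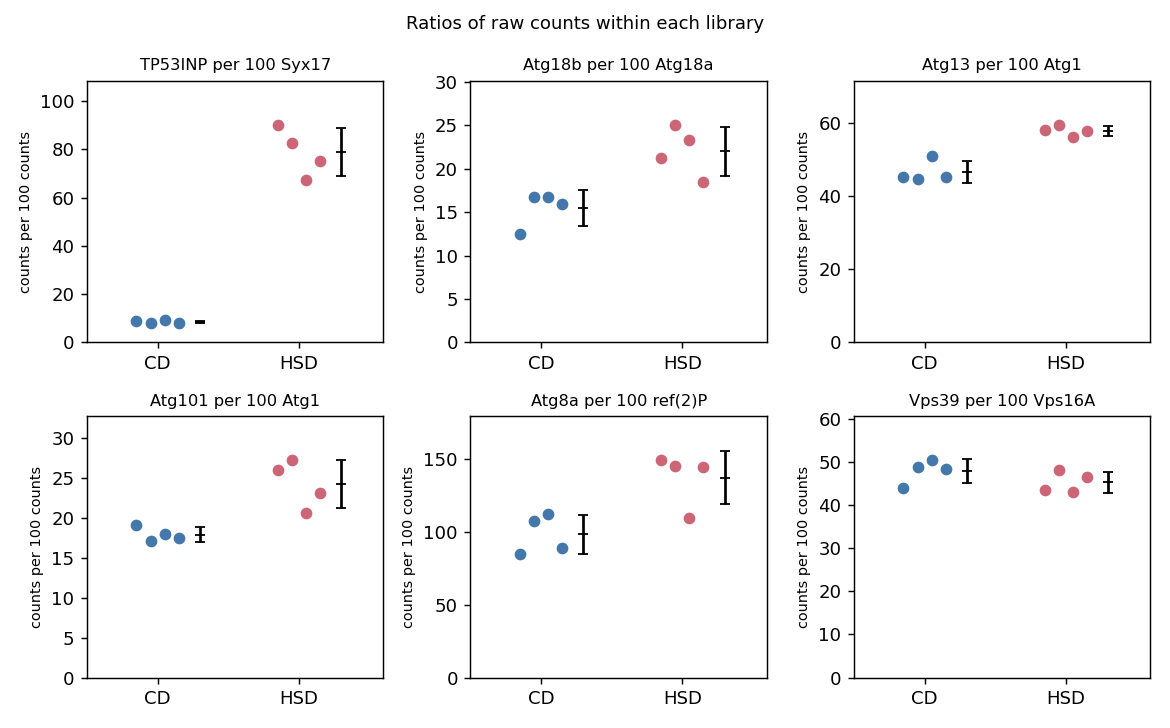
Counts of a gene per 100 counts of another in the same library (linear axis from 0), 1 point per library with the mean ± SD of 4 libraries. The diets separate for TP53INP over Syx17, Atg18b over Atg18a, and Atg13 and Atg101 over Atg1, and overlap for Atg8a over ref(2)P and Vps39 over Vps16A.

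A list of 22 other genes of autophagy regulation and vesicle fusion, all tested, had 5 called higher and 2 lower, or 31.8% beside 26.0% of all tested genes, with a median log2 fold change of 0.02. The clear difference was in alc, the beta subunit of the energy-sensing kinase AMPK, at 123 ± 5.30 CPM on CD and 225 ± 10.7 CPM on HSD (0.87 ± 0.0515 on the log2 scale, edgeR adjusted p = 2.02e-07). The subunit genes AMPKalpha and SNF4Agamma had log2 fold changes of −0.09 and −0.03 and did not pass (edgeR adjusted p = 0.215 and 0.663). The small GTPase genes Rab2 and Rab7, which act in fusion with the lysosome, and the SNARE gene Ykt6 had log2 fold changes of 0.20, 0.15 and 0.20 (edgeR adjusted p = 0.0116, 0.0305 and 0.0255). The fifth gene called higher was Pink1, a mitophagy kinase gene named after its value was seen (0.17, edgeR adjusted p = 0.0381). The genes called lower were ema, at −0.17, and TER94, which encodes the segregase p97, at −0.15 (adjusted p = 0.0457 and 0.0442). The remaining HOPS genes Vps11, dor, car and lt did not pass, with log2 fold changes from −0.16 for car to 0.11 for Vps11. Opposite-strand exons cover 27.7% of the exonic length of Vps11 and 10.5% of that of Pink1.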

How the data were processed

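Poly(A) RNA of sorted hemocytes was sequenced in 4 libraries per diet. The deposited table holds raw read counts per gene, made by the authors with Trim Galore 0.6.7, STAR 2.7.10a and featureCounts on dm6, per the submitters' processing notes. The treatment of strand and of reads that map to several places is not given in the sources used here. Every count column matched 1 sample. Genes were tested with edgeR 4.0.16 (quasi-likelihood, robust, TMM scaling, filterByExpr with a minimum count of 10) in R 4.3.3, with Benjamini-Hochberg adjustment over 7844 genes and a threshold of 0.05. The fit was tested on simulated data. CPM are on the TMM scale, and levels per kilobase use the union of annotated exons (Ensembl, in dm6 coordinates). DESeq2 1.42.0 and limma 3.58.1 were alternatives, with other scalings, filters, a replicate block and each library left out.

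The members and gene lists were chosen with earlier results of these data known. The text names every listed member in the table. Planned names were also the 4 genes of the further autophagy list with the smallest p in each direction among those called, and fixed markers. Named in addition were Pink1, the uncalled AMPK and HOPS genes of that list, and markers other than Hml, atilla and Lsp2. The fixed markers NimC1, lz and PPO1 entered only the counts and sums. Within-library ratios and the neighbours of TP53INP were chosen after values were seen. A planned comparison of promoter and protein sequences was not run. Total counts of 20817891 to 24733521 per library set the counting precision, and the counting interval covers counting error only.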

Additional observations from a re-analysis of the deposited data

Results flagged for a closer look

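In 60 groups of 4 libraries (30 genes in each diet), 3 held a library whose gap to the nearest other, divided by the group's range, reached Dixon's 95% critical value. Chance alone gives about 1 in 20 groups. Atg8a was at 162 CPM in HSD replicate 3, against 196 to 204 CPM in the other HSD libraries. Uvrag was at 17.6 CPM in HSD replicate 4, against 20.1 to 20.5 CPM, and Atg2 was at 41.1 CPM in HSD replicate 4, against 45.1 to 45.8 CPM.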

How the results depend on the processing

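The Atg18b call held under all 17 alternatives. The log2 fold change of TP53INP, which was listed for that difference, ran from 3.28 to 3.53 over them. The count of 6 other members called higher became 1 when scaled by library size alone and 10 at a threshold of 0.1, and ran from 4 to 9 with single libraries left out. The count of 1 called lower became 11 with library size scaling, 2 with limma-voom, 2 without CD replicate 1 and HSD replicate 4 together (a setting chosen after seeing the data) and 2 at a threshold of 0.1, and ran from 0 to 2 with single libraries left out. The median log2 fold change of 0.06 became −0.11 with library size scaling and 0.09 without those 2 libraries, and ran from 0.05 to 0.09 with single libraries left out. Over all genes, library size scaling called 690 higher and 3161 lower, against 1128 and 912, and limma-voom called 1430 lower. With the replicate number as a block, 1 member was called higher and 0 lower (edgeR adjusted p = 0.195 for Atg13, 0.168 for Atg101, 0.239 for Atg6, 0.224 for Atg9, 0.111 for Atg8a and 0.161 for Vps39), the median was 0.07, and over all genes 589 were higher and 253 lower. The correlations of same-numbered deviations from the diet mean were −0.131, −0.0738 and −0.176 for numbers 1, 3 and 4. Differently numbered pairs ran from −0.188 to 0.226. So few pairs cannot show whether libraries of the same number shared a day or a sort.

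Some members that were not called changed sign. With library size scaling these were Atg17 (−0.11), Atg14 (−0.11), Atg18a (−0.07), Atg3 (−0.08), Atg4a (−0.10), Atg4b (−0.00) and Mitf (−0.14). With limma-voom they were Vps34 (0.01), Uvrag (0.01), Atg10 (0.07) and Mitf (−0.02), without both libraries Vps34 (0.03), Uvrag (0.05), Atg10 (0.11) and Mitf (−0.02), and with the block Atg10 (0.01). With single libraries left out, Atg17 ran from −0.04 to 0.13, Vps34 from −0.07 to 0.01, Uvrag from −0.05 to 0.03, Mitf from −0.03 to 0.07 and Atg10 from −0.19 to 0.12. The cause was not tested. The stricter filter of 5 CPM in 4 libraries removed Atg10 and Atg12, whose low counts limit them most.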
